A study of Mus musculus with 4 samples.

Results

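The CYP4 fatty acid hydroxylases were described here as 7 genes, Cyp4a10, Cyp4a14, Cyp4a31, Cyp4a32, Cyp4a12a, Cyp4a12b and Cyp4b1, read by gene symbol. All 7 were among the 21312 genes of the deposited proximal tubule table and among the 24468 genes of the deposited table of kidney clusters. They were grouped as a gene family, at a time when earlier results of these data were known. The study profiled RNA of single nuclei from mouse kidney cortex with outer medulla, in 4 samples. Cis9w stood for 2 samples from male C57BL/6 mice injected with cisplatin, a platinum chemotherapy drug that damages the proximal tubule, at 8 mg/kg once a week for 4 weeks, with kidneys taken 9 weeks after the first injection. CT9w stood for 2 untreated samples. The ages of the mice, and whether a sample was 1 animal or several, are stated in no source used here.

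CYP4 enzymes are cytochrome P450 mono-oxygenases of the endoplasmic reticulum. They add a hydroxyl group at or near the methyl end of a fatty acid, the first step of omega oxidation, and alcohol and aldehyde dehydrogenases then turn the product into a dicarboxylic acid that peroxisomes shorten. With arachidonic acid as substrate, some CYP4A enzymes make 20-HETE, a lipid that acts on renal blood vessels and on tubular salt transport. In mice, Cyp4a10 and Cyp4a14 are classical targets of the nuclear receptor PPAR-alpha, Cyp4a12a is an androgen-dependent 20-HETE synthase of the male kidney, and Cyp4b1 oxidises shorter fatty acids and a range of foreign compounds.

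The 7 genes lie together on chromosome 4 (GRCm38, the assembly of mm10), within 349 kb between positions 115299046 and 115647723 of the GENCODE M21 annotation. Cyp4a12a (115299046-115332815), Cyp4a12b (115411624-115439034), Cyp4a10 (115518264-115533649), Cyp4a31 (115563649-115579015) and Cyp4a32 (115600969-115621602) lie on the plus strand. Cyp4a14 (115486200-115496142) and Cyp4b1 (115624725-115647723) lie on the minus strand. Cyp4a32 and Cyp4b1 therefore meet end to end, with 3.12 kb between their annotated 3′ ends.

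How alike the genes are in sequence bears on how their reads could be told apart. Stretches of 78 coding bases around the codon of the cysteine that holds the haem iron are shown for this reason, from the GENCODE M21 transcripts, 5′ to 3′. Capitals mark bases that differ from Cyp4a10.
Cyp4a10: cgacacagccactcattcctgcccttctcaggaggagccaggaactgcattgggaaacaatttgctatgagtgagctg
Cyp4a31: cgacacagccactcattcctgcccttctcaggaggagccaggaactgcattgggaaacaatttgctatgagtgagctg
Cyp4a32: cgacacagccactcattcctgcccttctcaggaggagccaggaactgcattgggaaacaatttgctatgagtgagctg
Cyp4a12a: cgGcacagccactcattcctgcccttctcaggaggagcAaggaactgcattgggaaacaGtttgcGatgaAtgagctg
Cyp4a12b: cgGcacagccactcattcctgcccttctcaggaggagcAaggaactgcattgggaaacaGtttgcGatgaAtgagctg
Cyp4a14: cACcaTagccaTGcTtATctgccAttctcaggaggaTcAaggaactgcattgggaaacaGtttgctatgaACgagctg
Cyp4b1: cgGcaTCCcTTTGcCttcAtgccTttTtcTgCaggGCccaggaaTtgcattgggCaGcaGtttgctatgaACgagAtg

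In this stretch Cyp4a31 and Cyp4a32 had 0 differences from Cyp4a10. Cyp4a12a and Cyp4a12b had the same 5 differences, while Cyp4a14 had 14 and Cyp4b1 had 23. Over the whole coding sequence, Cyp4a10 was 97.2% identical to Cyp4a32 and 96.6% identical to Cyp4a31. Cyp4a12a and Cyp4a12b differed at 23 of 1527 coding positions. Cyp4a14 shared between 76.0% and 77.0% of bases with each of the other Cyp4a genes, and Cyp4b1 between 61.9% and 63.7% with any Cyp4a gene. The pair Cyp4a12a and Cyp4a12b is shown further over coding bases 624 to 683, a stretch with 4 of their differences, in capitals.
Cyp4a12a: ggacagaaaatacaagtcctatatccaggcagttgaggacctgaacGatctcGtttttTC
Cyp4a12b: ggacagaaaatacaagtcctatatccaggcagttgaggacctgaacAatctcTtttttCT

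The libraries were made with a 3′ kit, so the last bases of each annotated spliced transcript were compared. Where the reads lay was not seen. RNA of nuclei can also be unspliced, and introns were not compared. Of all windows of 50 bases in the last 500 bases of a transcript, 37.0% of those of Cyp4a12a and of Cyp4a12b also occurred in another gene's transcripts. The share was 5.99% for Cyp4a10 and for Cyp4a31, 2.22% for Cyp4b1 and 0% for Cyp4a14. It was 66.7% for Cyp4a32, whose annotated transcript stops at the stop codon and so holds no 3′ untranslated bases. The division of reads between Cyp4a12a and Cyp4a12b, and the counts of Cyp4a32, are therefore uncertain. By these windows alone, the counts of Cyp4a14 and Cyp4b1 are the least open to shared reads.

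In proximal tubule nuclei, 1 of the 7 genes rose and 3 fell in Cis9w against CT9w. Cyp4a14 was 5.85-fold higher, Cyp4b1 was 2.73-fold lower, Cyp4a32 was 3.84-fold lower and Cyp4a12a was 3.89-fold lower. A gene counted as called where the deposited p-value was under 0.05. By that rule 1.51% of the 10656 genes at the expression floor rose and 1.78% fell, 3.29% in all, and all 7 members stood at that floor. That floor, 0.0154, is the middle value over all genes of the average taken across both pools. Each group has 1 pooled column of averages, labelled with no sample, so no spread between samples can be given, and the intervals below cover counting error only. The deposited p-value is the authors' own, and no source used here names the test behind it. In pools of nuclei, a different mix of tubule cells and a different level per cell cannot be told apart.

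Averages are normalised UMIs per nucleus, where a UMI is 1 captured RNA molecule and all genes of a column sum to 2797. The pools held 8557662 UMIs in Cis9w and 5123727 UMIs in CT9w. Cyp4a14 had an average of 0.128 in Cis9w (391 UMIs), against 0.0218 in CT9w (40 UMIs). The ratio was 5.85 with a 95% interval of 4.22 to 8.32. The authors' deposited table gives Cyp4a14 a log2 fold change of 2.52 and a p of 1.09e-09. The counting intervals of the pools were thus far apart.

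Cyp4b1 was by far the most abundant member in both pools. Its average was 2.40 in Cis9w (7338 UMIs), against 6.56 in CT9w (12016 UMIs). It was 2.73-fold lower, with an interval of 2.66 to 2.82. The authors' deposited table gives Cyp4b1 a log2 fold change of -1.45 and a p of 1.07e-06. Because Cyp4b1 supplies most of the family's RNA, the summed average of the 7 genes was 3.05 in Cis9w and 7.43 in CT9w, a ratio of 0.410 (interval 0.400 to 0.421).

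Cyp4a32 had an average of 0.0445 in Cis9w (136 UMIs), against 0.171 in CT9w (313 UMIs). It was 3.84-fold lower, with an interval of 3.13 to 4.74, and the authors' deposited table gives it a log2 fold change of -1.94 and a p of 2.65e-09. Cyp4a12a had an average of 0.0160 in Cis9w (49 UMIs), against 0.0622 in CT9w (114 UMIs). It was 3.89-fold lower, with an interval of 2.76 to 5.55, and the authors' deposited table gives a log2 fold change of -1.94 and a p of 3.21e-06 for Cyp4a12a. Its near-copy Cyp4a12b had an average of 0.0327 in Cis9w (100 UMIs) and 0.0317 in CT9w (58 UMIs), a ratio of 1.03 with an interval of 0.740 to 1.45. The authors' deposited table gives Cyp4a12b a log2 fold change of 0.04 and a p of 1.

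Cyp4a10 and Cyp4a31 were not called. Cyp4a10 averaged 0.130 in Cis9w (399 UMIs) and 0.161 in CT9w (295 UMIs), a ratio of 0.810 with an interval of 0.695 to 0.945. Cyp4a31, which is close to Cyp4a10 in sequence, averaged 0.299 in Cis9w (916 UMIs) and 0.421 in CT9w (771 UMIs), a ratio of 0.711 with an interval of 0.646 to 0.784. The counting intervals of both lay below 1, while the authors' deposited table gives p-values of 1 for Cyp4a10 and 0.658 for Cyp4a31. Cyp4a14 and Cyp4a10, both PPAR-alpha targets in mouse liver and kidney, thus had ratios on either side of 1.

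**Figure D1:**
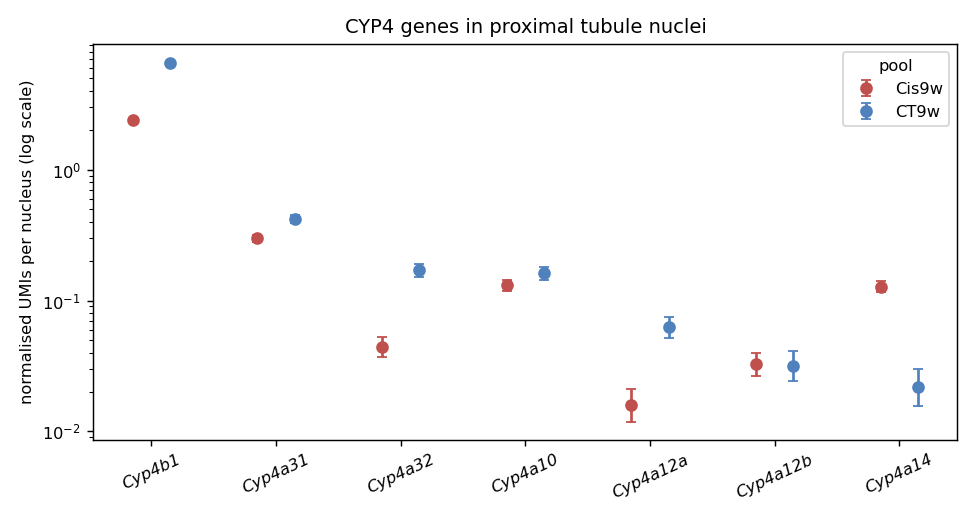
Average of each CYP4 gene in proximal tubule nuclei, in normalised UMIs per nucleus on a log axis, for the Cis9w pool (red, left) and the CT9w pool (blue, right); bars are exact Poisson 95% intervals, which cover counting error only. Cyp4b1 is highest in both pools, at 2.40 in Cis9w and 6.56 in CT9w, and Cyp4a14 is the gene whose Cis9w point lies clearly above its CT9w point.

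The make-up of the Cyp4a RNA shifted while its sum moved less. The 6 Cyp4a genes together averaged 0.651 in Cis9w (1991 UMIs) and 0.869 in CT9w (1591 UMIs), a ratio of 0.749 with an interval of 0.701 to 0.801. Cyp4a14 took 19.6% of these UMIs in Cis9w (exact binomial 95% interval 17.9% to 21.5%), against 2.51% in CT9w (1.80% to 3.41%). Cyp4a32 took 6.83% in Cis9w and 19.7% in CT9w, and Cyp4a12a took 2.46% in Cis9w and 7.17% in CT9w. Cyp4a31 stayed the largest component, with 46.0% in Cis9w and 48.5% in CT9w. Cyp4a10 took 20.0% in Cis9w and 18.5% in CT9w, and Cyp4a12b took 5.02% in Cis9w and 3.65% in CT9w. The intervals of Cyp4a31 and of Cyp4a10 overlapped between the pools.

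**Figure D2:**
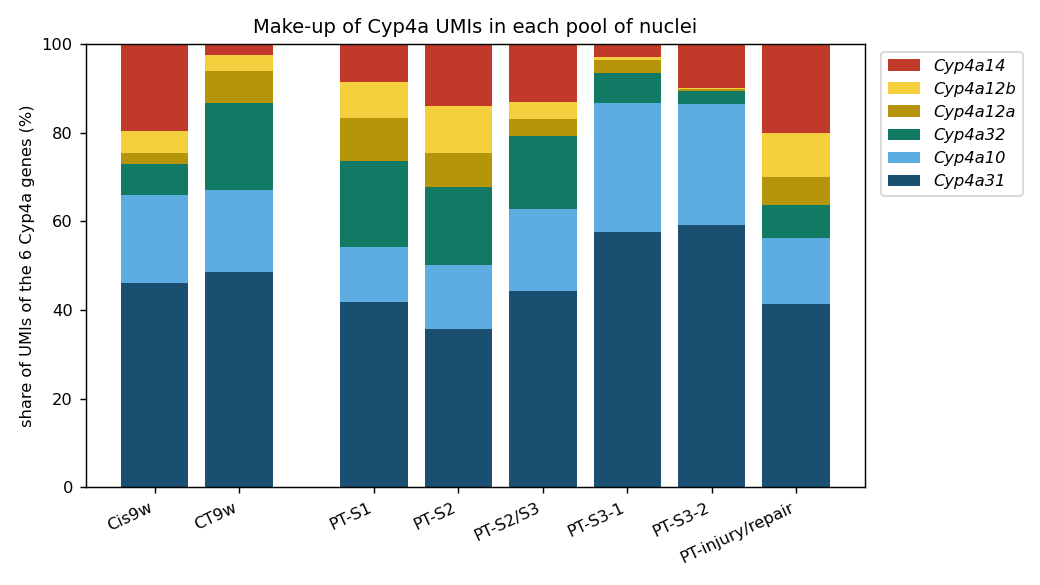
Share of the UMIs of the 6 Cyp4a genes taken by each gene, in percent, in the Cis9w and CT9w proximal tubule pools and, set apart, in the 6 proximal tubule clusters of the second table. Cyp4a14 (red, top) takes 19.6% in Cis9w and 2.51% in CT9w, and among the clusters it takes 9.86% in PT-S3-2 and 2.84% in PT-S3-1.

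Levels of different genes were compared per kb of annotated transcript. Cyp4b1 came first in both pools, with 1.27 normalised UMIs per nucleus per kb in Cis9w and 3.47 in CT9w. It stood 10.6-fold above Cyp4a31, the next, in Cis9w and 20.7-fold above it in CT9w. The scale matters here, since UMIs of a 3′ kit need not grow with transcript length. Per kb of gene span these folds were 5.35 in Cis9w and 10.4 in CT9w, and on plain averages 8.01 in Cis9w and 15.6 in CT9w. Cyp4a14 had 0.0512 per kb of transcript in Cis9w and 0.00875 in CT9w.

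The second table gives averages for 17 clusters of nuclei from all samples, scaled so that each column sums to 2008. By the authors' names, 6 of the clusters are proximal tubule, the segment of the nephron that reabsorbs most of the filtrate and runs from S1 through S2 to S3. The 6 proximal tubule clusters held between 88.6% (Cyp4a12a) and 97.2% (Cyp4a12b) of each CYP4 gene's UMIs over the 17 clusters. Over all genes, these 6 clusters held 23761309 of 3.61e+07 UMIs, so part of each share follows from the size of the pools. The clusters were made from the same expression values, so these levels are a description and carry no test.

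Within the proximal tubule the genes fell into different zones. Cyp4b1 was highest in PT-S2/S3, at 4.66, then in PT-S2 at 3.73, PT-S1 at 1.90 and PT-S3-1 at 1.69, and it was 0.657 in PT-S3-2. Cyp4a32 had the same leading pair, with 0.114 in PT-S2/S3 and 0.0840 in PT-S2. The Poisson intervals of these leading clusters did not overlap for either gene.

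Cyp4a31 and Cyp4a10 had their maximum in the third segment. Cyp4a31 averaged 0.526 in PT-S3-2, 0.427 in PT-S3-1, 0.305 in PT-S2/S3, 0.171 in PT-S2 and 0.0985 in PT-S1. Cyp4a10 averaged 0.244 in PT-S3-2 and 0.215 in PT-S3-1, which overlapped in their intervals, and then 0.128 in PT-S2/S3. Both genes were thus lowest, among these 5 clusters, at the S1 end.

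Cyp4a12a and Cyp4a12b were highest in PT-S2. Cyp4a12a averaged 0.0366 there (78 UMIs), 0.0260 in PT-S2/S3, 0.0230 in PT-S1 and 0.0211 in PT-S3-1, each overlapping its neighbour in this order. Cyp4a12b averaged 0.0512 in PT-S2 (109 UMIs), 0.0276 in PT-S2/S3 and 0.0193 in PT-S1, and it had 4 UMIs in PT-S3-1 and 3 UMIs in PT-S3-2. Its interval in PT-S2 lay above that in PT-S2/S3. The near-copies thus had the same leading cluster, and their Pearson r over the 17 clusters was 0.52.

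Cyp4a14 had no single zone. It averaged 0.0898 in PT-S2/S3 (332 UMIs), 0.0878 in PT-S3-2 (160 UMIs) and 0.0671 in PT-S2 (143 UMIs), and neighbours in this order overlapped. Its level was 0.0211 in PT-S3-1 (14 UMIs) and 0.0204 in PT-S1 (55 UMIs). The S3 clusters PT-S3-2 and PT-S3-1 thus stood apart in Cyp4a14, with intervals that did not overlap.

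**Figure D3:**
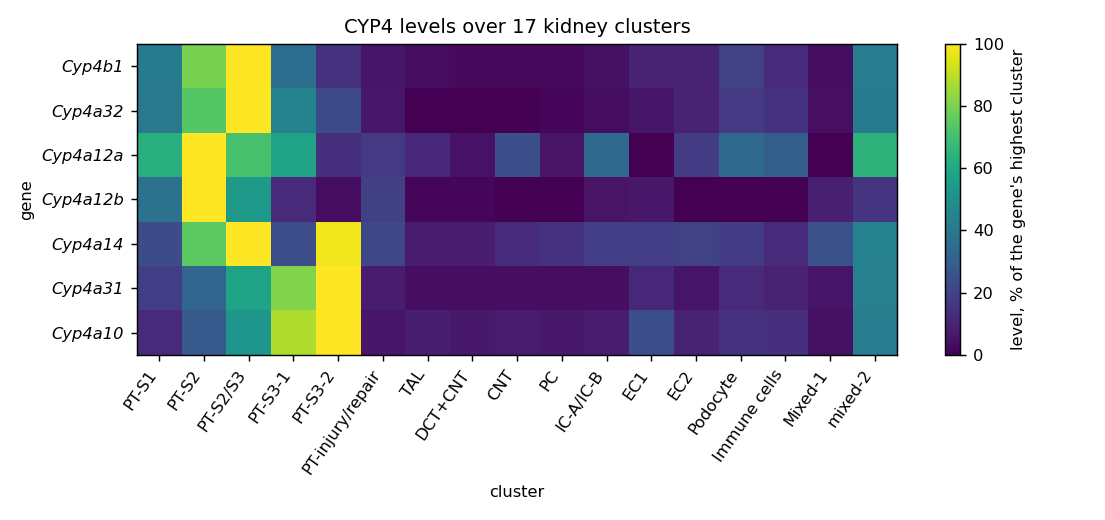
Level of each CYP4 gene in 17 kidney clusters, as a percentage of that gene's highest cluster (colour). Cyp4b1 and Cyp4a32 peak in PT-S2/S3, Cyp4a12a and Cyp4a12b in PT-S2, Cyp4a31 and Cyp4a10 in PT-S3-2, and Cyp4a14 is close to its maximum in both PT-S2/S3 and PT-S3-2.

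Set against PT-S3-1, the PT-S3-2 cluster differed in the same direction as Cis9w against CT9w for Cyp4a14 and for each of the 3 genes that fell. This pair of clusters was chosen after its values were seen and the clusters hold nuclei of both groups in proportions that no source used here states, so it is a description. Cyp4a14 was 4.17-fold higher in PT-S3-2 than in PT-S3-1 (counting interval 2.41 to 7.80). Cyp4b1 was 2.58-fold lower (2.37 to 2.80), Cyp4a32 was 1.94-fold lower (1.21 to 3.08) and Cyp4a12a was 4.26-fold lower (1.72 to 11.2). Cyp4a31 was 1.23-fold higher (1.08 to 1.41), unlike its ratio of 0.711 in Cis9w over CT9w, and the ratio of Cyp4a10 was 1.13 (0.936 to 1.38). Cyp4a12b, with 3 UMIs in PT-S3-2 and 4 UMIs in PT-S3-1, had a ratio of 0.274 (0.0401 to 1.62), against 1.03 in Cis9w over CT9w.

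Other genes separated these S3 clusters too. The prolactin receptor gene Prlr averaged 1.77 in PT-S3-2 and 0.352 in PT-S3-1, and the transporter gene Slc7a12 averaged 1.98 in PT-S3-2 and 0.526 in PT-S3-1. In the proximal tubule table Prlr was 6.34-fold higher and Slc7a12 5.93-fold higher in Cis9w, and both are named female-biased in mouse kidney. The S3 marker Slc7a13, an amino acid transporter, averaged 5.08 in PT-S3-2 and 4.80 in PT-S3-1. The organic anion transporter gene Slco1a1, male-biased in mouse kidney, averaged 0.0681 in PT-S3-2 and 0.159 in PT-S3-1. Cyp7b1, also male-biased, did not follow: it averaged 4.76 in PT-S3-2 and 4.29 in PT-S3-1, while it was 6.27-fold lower in Cis9w than in CT9w.

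**Figure D4:**
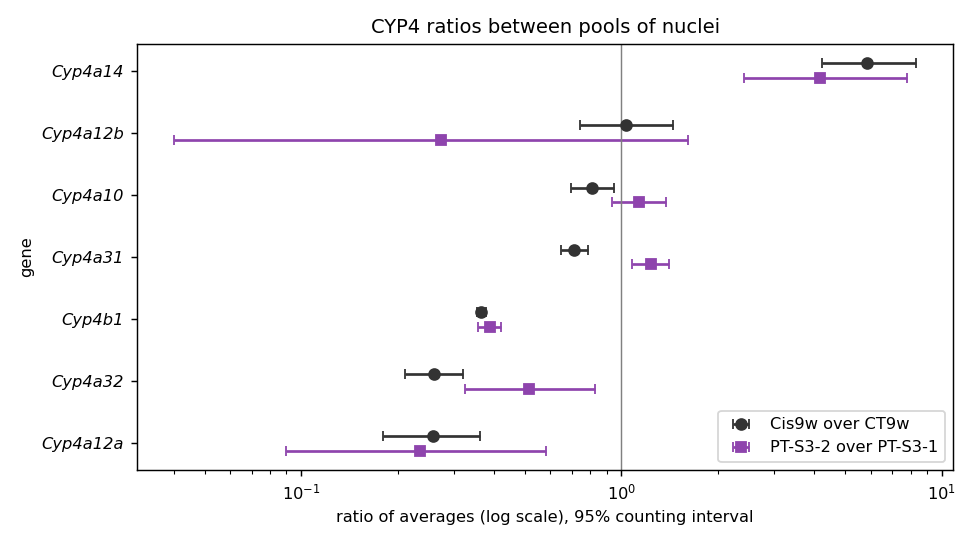
Ratio of each CYP4 gene's averages on a log axis, for Cis9w over CT9w in the proximal tubule table (black circles) and for PT-S3-2 over PT-S3-1 in the cluster table (purple squares), with 95% Clopper-Pearson intervals that cover counting error only; the grey line marks 1. Cyp4a14 lies to the right of 1 in both, at 5.85 and 4.17, and Cyp4b1, Cyp4a32 and Cyp4a12a lie to the left in both.

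The cluster that the authors name PT-injury/repair had less of every member than the other 5 proximal tubule clusters together. Cyp4b1 averaged 0.264 in PT-injury/repair (216 UMIs) and 2.96 in the other 5, 11.2-fold lower with an interval of 9.82 to 12.9. Cyp4a32 was 9.98-fold lower, Cyp4a10 was 7.99-fold lower and Cyp4a31 was 6.77-fold lower. The gap was smaller for Cyp4a12a (3.85-fold, 5 UMIs in the injury cluster), Cyp4a14 (3.27-fold, 16 UMIs) and Cyp4a12b (2.51-fold, 8 UMIs). Cyp4a14, the gene that rose in Cis9w, averaged 0.0195 in PT-injury/repair and 0.0639 in the other 5 pooled. Its level in PT-injury/repair was close to 0.0204 in PT-S1 and 0.0211 in PT-S3-1, with overlapping intervals. Cyp4a12b, at 0.00977 in PT-injury/repair, stood above PT-S3-1 (0.00602) and PT-S3-2 (0.00165). Cyp4a12a, at 0.00610, stood above PT-S3-2 (0.00494). The intervals of these few UMIs overlapped too. Over the 11 clusters outside the proximal tubule, Cyp4b1 averaged 0.275, Cyp4a31 0.0300, Cyp4a10 0.0237 and Cyp4a32 0.00457. Cyp4a14 averaged 0.0126 there, Cyp4a12a 0.00555 and Cyp4a12b 0.00131. PT-injury/repair lay below those levels for Cyp4b1 and Cyp4a10 (0.0147). It lay above them for the remaining members, with 0.0403 for Cyp4a31 and 0.00733 for Cyp4a32. Whether the unequal gaps reflect RNA kept by injured nuclei was not tested.

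Outside the proximal tubule, CYP4 UMIs were few. Over the 11 other clusters together, Cyp4b1 reached 9.30% of its mean in the 5 uninjured proximal tubule clusters, Cyp4a31 reached 11.0%, Cyp4a32 6.25% and Cyp4a12b 5.32%. For comparison, Lrp2, which encodes the endocytic receptor megalin of the proximal tubule, reached 7.59% and the phosphate transporter gene Slc34a1 reached 8.04%. Whether such shares come from free RNA, doublets or misplaced nuclei was not tested. Cyp4a32 and Cyp4a12b lay below these shares. Cyp4b1 (1688 UMIs) and Cyp4a31 (184 UMIs) lay somewhat above them, and Cyp4a10 (20.2%, 145 UMIs), Cyp4a14 (19.7%, 77 UMIs) and Cyp4a12a (23.6%, 34 UMIs) further above. The highest of the 11 was the small cluster mixed-2 for each of the 7 genes, and for Lrp2 and Slc34a1 too.

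Genes with the most similar pattern over the 17 clusters were found by Pearson's r of log2 averages, a measure in which all points share pooled libraries and differ in depth. Slc13a3, a dicarboxylate transporter gene, was most like Cyp4b1 (r = 0.97), followed by Slc22a28 and Acsm2. Eci3, a peroxisomal enzyme of fatty acid oxidation, was most like Cyp4a31 (r = 0.98), followed by the fatty acid transport gene Slc27a2 and the metalloprotease gene Mep1a. Fut8 was most like Cyp4a32 (r = 0.96), BC035947 most like Cyp4a10 (r = 0.94), the transcription factor gene Zbtb20 most like Cyp4a14 (r = 0.90), Csrnp3 most like Cyp4a12b (r = 0.90) and Habp2 most like Cyp4a12a (r = 0.83). Between members, r was highest for Cyp4b1 with Cyp4a32 (0.96) and for Cyp4a10 with Cyp4a31 (0.94), and lowest for Cyp4a10 with Cyp4a12b (0.37).

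Of the 20 like genes named by that rule, 0 were called higher and 3 were called lower in Cis9w by the authors' deposited p-value: Acy3, D630029K05Rik and Eci3. That is 15.0% called, against 3.29% of all genes at the floor. Like genes also had to average at least 0.1 in some cluster, so the 2 shares are not of like sets. Acy3 and D630029K05Rik were like Cyp4a10 and Eci3 was like Cyp4a31, members that were not called. None of the genes most like Cyp4a14, Cyp4b1, Cyp4a32 or Cyp4a12a was called. Slc13a3, for Cyp4b1, averaged 2.22 in Cis9w and 1.74 in CT9w, and the authors' deposited table gives it a p of 1. Zbtb20, for Cyp4a14, averaged 26.6 in Cis9w and 28.7 in CT9w, and its p there is 1 too.

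RefSeq promoters were at hand for 2 members, Cyp4a32 and Cyp4b1, which both fell in Cis9w and which had the highest r over clusters among member pairs. They are shown from 250 bases before to 50 bases after the RefSeq start (GRCm38.p6), on the strand of the gene. Capitals mark matches to 6 short motifs searched on both strands.
Cyp4a32 promoter, chr4:115600688-115600987, plus strand: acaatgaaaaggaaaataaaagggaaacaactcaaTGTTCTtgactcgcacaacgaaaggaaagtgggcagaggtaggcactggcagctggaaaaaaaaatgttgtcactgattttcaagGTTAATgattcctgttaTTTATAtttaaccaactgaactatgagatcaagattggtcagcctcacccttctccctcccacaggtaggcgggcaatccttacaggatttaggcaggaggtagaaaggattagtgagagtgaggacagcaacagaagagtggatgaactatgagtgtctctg
Cyp4b1 promoter, chr4:115647672-115647971, minus strand: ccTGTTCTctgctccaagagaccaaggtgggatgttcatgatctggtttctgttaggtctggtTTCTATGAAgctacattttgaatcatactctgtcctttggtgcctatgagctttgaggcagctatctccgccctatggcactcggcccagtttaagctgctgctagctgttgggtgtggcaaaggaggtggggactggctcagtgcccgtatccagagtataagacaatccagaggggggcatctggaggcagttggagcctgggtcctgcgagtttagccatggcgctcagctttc

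Both promoters held TGTTCT, a steroid hormone receptor half-site, once, as did 19.0% of the 32851 RefSeq promoters of this length. The match began at base 36 for Cyp4a32 and at base 3 for Cyp4b1. Cyp4a32 also held GTTAAT, an HNF1 half-site (7.10% of promoters), and TATAAA on the other strand (13.6%). Cyp4b1 held TTCNNNGAA, a STAT5 site (8.30%). Neither window held AGGTCA, the nuclear receptor half-site found in 16.3% of promoters, nor AGGTCANAGGTCA, the PPAR-type repeat found in 0.0396%. These matches are letters in a window and say nothing of binding.

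Of 10 other CYP4 genes in the proximal tubule table, 0 were called, but only 2 stood at the floor. Over all genes at the floor 3.29% were called, so a count of 0 is near that share. It does not show that these genes were unchanged. Cyp4f13 averaged 0.136 in Cis9w (416 UMIs) and 0.170 in CT9w (312 UMIs), and Cyp4f17 averaged 0.0869 in Cis9w (266 UMIs) and 0.0688 in CT9w (126 UMIs). Both stood at the floor, and the authors' deposited table gives each a p of 1. Cyp4f16 had 38 UMIs in Cis9w and 9 UMIs in CT9w, below the floor. Human CYP4F enzymes hydroxylate leukotrienes and long fatty acids.

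Genes of related pathways were called in both directions. Of 112 genes in 8 related lists at the floor, 4 rose and 7 fell, which is 9.82% called against 3.29% of all genes at the floor. The lists were chosen with earlier results of these data known, so this share is a description. The androgen and growth hormone signalling list is 1 of the 8 and held 1 of these rises and 3 of these falls. Hao2, another of the rises, is also in the female-biased list. Of 5 electron donors of P450 enzymes, 0 were called, and the reductase gene Por averaged 0.735 in Cis9w and 0.819 in CT9w. Of 7 genes that carry omega oxidation past the hydroxylase, 1 rose and 1 fell. The aldehyde dehydrogenase gene Aldh1a1 averaged 0.0536 in Cis9w and 0.0180 in CT9w (2.98-fold higher, counting interval 2.04 to 4.47). The alcohol dehydrogenase gene Adh1 averaged 0.139 in Cis9w and 0.301 in CT9w (2.17-fold lower, 1.91 to 2.47).

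Of 28 genes of peroxisomal oxidation, 1 rose and 2 fell, against 1.51% and 1.78% of all genes at the floor. Ehhadh, the bifunctional enzyme that degrades dicarboxylic acids, averaged 0.233 in Cis9w and 0.563 in CT9w (2.41-fold lower, 2.19 to 2.66). Crot, which hands shortened acids on as carnitine esters, averaged 0.351 in Cis9w and 0.726 in CT9w (2.07-fold lower, 1.91 to 2.25). The hydroxyacid oxidase gene Hao2 averaged 0.517 in Cis9w and 0.225 in CT9w (2.30-fold higher, 2.06 to 2.57).

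Of 34 PPAR-alpha target genes other than the members, 0 rose, against 1.51% of all genes at the floor, and 2 fell, against 1.78%. A count of 0 is near that share. The genes that fell were Ehhadh and Cd36, a fatty acid uptake receptor gene that averaged 0.254 in Cis9w and 0.689 in CT9w (2.71-fold lower, 2.48 to 2.97). By the authors' deposited table, the targets had a median log2 fold change of -0.17, against 0.03 over all genes at the floor. Of 13 genes for PPAR-alpha and its partners, 0 were called, and Ppara itself averaged 1.95 in Cis9w and 1.86 in CT9w.

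Of 16 genes that release arachidonic acid or feed it to other routes, 1 rose and 0 fell. The shares over all genes at the floor were 1.51% and 1.78%. The riser was Ephx1, microsomal epoxide hydrolase, at 0.0745 in Cis9w and 0.0169 in CT9w (4.40-fold higher, 3.02 to 6.63). By the authors' deposited table, the list had a median log2 fold change of -0.17, and of 0.03 when genes below the floor were counted. The authors' deposited table gives the epoxygenase gene Cyp2j5 a log2 fold change of -0.24 and a p of 1.

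**Figure D5:**
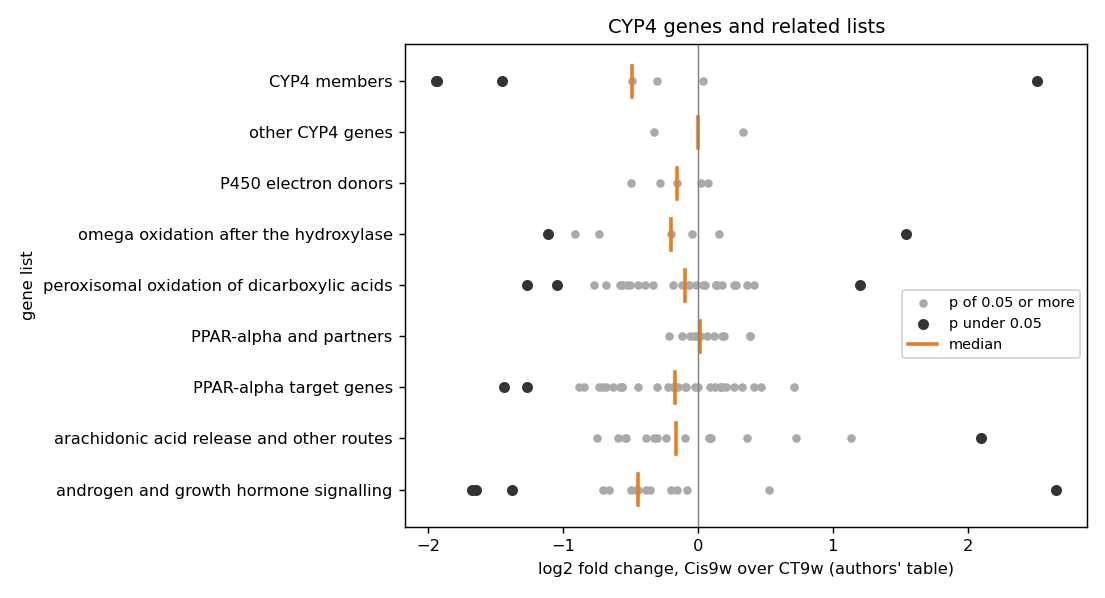
Fold change on the log2 scale, Cis9w over CT9w, as the authors' deposited table gives it, for the 7 CYP4 genes and for members at the expression floor of 8 related lists; each point is 1 gene, dark where the deposited p is under 0.05, and the orange line is the median. The CYP4 row holds the dark points of Cyp4a14 at 2.52 and of Cyp4b1, Cyp4a32 and Cyp4a12a between -1.94 and -1.45, while the PPAR-alpha target row has its median at -0.17.

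Several gene groups moved beside the CYP4 genes, and their part in the CYP4 differences was not tested. Over all genes at the floor 1.51% rose and 1.78% fell, the shares to set beside each count below. The lists share genes, so their counts are not separate. Of the signalling genes below, Prlr is also in the female-biased list and Hsd17b11 in the male-biased list. Of 15 genes of androgen and growth hormone signalling, 1 rose (Prlr) and 3 fell: Hsd17b11 (3.20-fold lower), Bcl6 (3.14-fold lower) and Hsd11b1 (2.61-fold lower). Of 20 male-biased mouse kidney genes, 0 rose and 11 fell, led by Slco1a1 (26.8-fold lower) and Cyp7b1 (6.27-fold lower). Of 16 female-biased genes, 4 rose and 4 fell. Prlr and Slc7a12 were among the 4 that rose, and Akr1c14 (8.84-fold lower) and Slc22a19 (3.70-fold lower) among the 4 that fell.

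Segment markers moved as well, in lists that overlap with those of sex bias. Of the called third-segment markers, Slc7a13, Cyp7b1, Acsm3 and Slc22a30, which fell, are also in the male-biased list. Cyp2d26, the third-segment marker that rose, is also in the female-biased list. Cyp2e1, a second-segment marker that fell, is also in the male-biased list. Of 10 markers of the third segment, 1 rose and 7 fell, against 1.51% and 1.78% of all genes at the floor. Their summed average was 6.39 in Cis9w and 16.0 in CT9w. Slc7a13 was 3.49-fold lower. Of 8 markers of the first segment 0 were called, with a sum of 24.4 in Cis9w and 20.3 in CT9w. Of 6 markers of the second segment 0 rose and 2 fell, with a sum of 16.0 in Cis9w and 14.8 in CT9w. Cyp4a31 and Cyp4a10, the members with their maximum in the S3 clusters, were not called in this comparison. Their ratios of Cis9w over CT9w were 0.711 for Cyp4a31 and 0.810 for Cyp4a10, with counting intervals below 1. Whether the mix of segments had a part in any CYP4 difference was not tested.

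Of 10 markers of injured proximal tubule at the floor, 9 rose and 0 fell, against 1.51% and 1.78% of all genes at the floor. Their list summed to 2.96 in Cis9w and 1.08 in CT9w, and the injury marker Havcr1 had 177 UMIs in Cis9w and 2 UMIs in CT9w. Mitochondrially encoded genes summed to 1.62 in Cis9w and 2.43 in CT9w. Markers of other cell types were present in both pools. Thick ascending limb markers summed to 3.10 in Cis9w and 3.33 in CT9w, and distal convoluted tubule markers to 1.36 in Cis9w and 1.30 in CT9w, with 0 called in either list. Of 3 principal cell markers at the floor, 2 rose, Scnn1b (3.25-fold higher) and Hsd11b2 (3.03-fold higher), and the list summed to 0.0941 in Cis9w and 0.0420 in CT9w.

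The remaining marker lists had 0 called genes, but few of their genes stood at the floor. These were 4 endothelial, 1 intercalated cell, 1 podocyte, 0 stromal and 0 immune markers. Their counts of 0 thus do not show that these cell types were unchanged. Endothelial markers summed to 0.211 in Cis9w and 0.137 in CT9w, intercalated cell markers to 0.0905 in Cis9w and 0.0360 in CT9w, and podocyte markers to 0.0961 in Cis9w and 0.0519 in CT9w. Stromal markers summed to 0.0333 in Cis9w and 0.0251 in CT9w, and immune markers to 0.0346 in Cis9w and 0.0191 in CT9w.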

How the data were processed

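Single nuclei were captured in droplets and their RNA was read from the 3′ end, per the labels' protocols. The submitters' processing notes name Cell Ranger 5.0.1 and the build mm10. How nuclei were filtered and clustered, how doublets and free RNA were handled and how shared reads were counted are not given in the sources used. The authors deposited, per the file headers, a signal (average normalised UMIs per nucleus) for each pool, and for each gene the log2 fold change and its p-value. No source used here says if 1 or 2 libraries a group make up the proximal tubule table. Its UMIs were 57.6% of those in the 6 proximal tubule clusters, and between 53.3% and 61.7% for the members. Whether the tables share nuclei is not stated.

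UMI sums were recovered because 1 step divides each column's averages into whole numbers (tolerance 0.1 UMI, at least 99.995% of genes). The UMI sums so recovered were used for intervals and no count test was run on them, since each group has 1 column. Ratios were given 95% Clopper-Pearson intervals, levels exact Poisson intervals and shares exact binomial intervals, all from the UMI sums. Of these steps, the UMI recovery and the ratio intervals were tested on simulated data. Sequences and positions came from GENCODE M21 and RefSeq GRCm38.p6, and coding sequences were aligned with Biopython 1.88. Lists on sex bias, segments and cell types hold textbook markers.

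The members and lists were chosen with earlier results of these data known. The genes named are the members, the other CYP4 genes, in each list no more than 3 genes called higher and 3 called lower (the largest folds), the 3 genes most like each member, and Ppara, Por, Havcr1, Slc5a2, Slc7a13 and Lrp2. One further gene of this rule is not reported here. Genes such as Cyp2j5, Slc34a1 and those used to compare the S3 clusters were added after their values were seen. Like genes had an average of at least 0.1 in some cluster. Other settings tried were a stricter p (0.01), a minimum log2 fold change (1), other floors and pseudocounts, recomputed fold changes, and medians over clusters.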

Additional observations from a re-analysis of the deposited data

How the results depend on the processing

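No paired analysis was possible because no column of the deposited tables is labelled with a sample, and no replicate could be left out for the same reason. The count of 4 called members was unchanged with a p under 0.01, with a log2 fold change of at least 1 beside the p. With other floors, settings added after seeing the data, it was 4 with no floor and 2 at a floor at the 75th percentile, which leaves out Cyp4a14 and Cyp4a12a. All 7 fold changes kept their direction when recomputed from the averages, but a pseudocount of 0.1 shrank them, on the log2 scale to 0.90 for Cyp4a14, -0.91 for Cyp4a32 and -0.48 for Cyp4a12a, since these averages are near or below it. The ratio of Cyp4b1 in PT-injury/repair to the other proximal tubule clusters was 0.139 against the median of the 5 averages, and 0.0891 against their pooled level. The median log2 fold change of the arachidonic acid list turned to 0.0258 with no floor, from -0.17. The count of 11 called genes over the 8 lists became 8 at a floor at the 75th percentile. Spearman's rho kept from 0 to 2 of the 3 genes most like each member. Depth limits several members: the smallest counts were 49 UMIs of Cyp4a12a in Cis9w, and 40 UMIs of Cyp4a14 and 58 UMIs of Cyp4a12b in CT9w.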

Other observations

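Within 100 kb of the outermost members, the proximal tubule table held 2 further genes. Efcab14, beyond Cyp4b1, had 371 UMIs in Cis9w and 193 UMIs in CT9w, and the authors' deposited table gives it a log2 fold change of 0.20 with p = 1. Cyp4a30b had 1 UMI in Cis9w and 2 UMIs in CT9w. The genes that rose and fell within the family were thus interleaved along the chromosome: Cyp4a14, which rose, lies between Cyp4a12b and Cyp4a10, neither of which was called, and Cyp4a32 and Cyp4b1, which both fell, are next to each other.

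Cyp4b1 made up 78.7% of the UMIs of the 7 genes in Cis9w and 88.3% in CT9w. Among the proximal tubule clusters its share was lowest in PT-S3-2, at 42.4%, and highest in PT-S1, at 88.9%. Kap, an androgen-regulated kidney transcript whose RNA is often free in such preparations, had a level in the 11 clusters outside the proximal tubule of 98.2% of its mean in the 5 uninjured proximal tubule clusters, against 5.32% to 23.6% for the CYP4 genes.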
